A study of Mus musculus with 16 samples.

Results

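Prostaglandins and leukotrienes are lipid mediators made from arachidonic acid, and the genes described here code for enzymes that make them, a protein linked to their resolution phase and a receptor of neutrophils. The rule named 10 genes: Ptgs1, Ptgs2, Ptges, Alox5, Alox5ap, Alox15, Lta4h, Anxa1, Fpr1 and Fpr2. Of these, 9 had a row among the 13733 genes of the deposited table and all 9 passed the filter on low values (1 CPM or more in 4 or more libraries), which left 13173 genes for testing. Fpr2 was not analysed here. The genes were chosen by name with earlier results of these data known, and no measured value entered the rule itself.

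The study ruptured the anterior cruciate ligament of the right knee by a single compression of the tibia and profiled cells of the knee joint by bulk RNA-seq, to ask how the joint responds in mice with and without the myeloid receptor Trem2. The 16 libraries fell into 4 groups of 4 replicates: WT D0 (uninjured wildtype C57BL/6), WT D7 (wildtype, 7 days after injury), Trem2-/- D0 (uninjured Trem2 knockout) and Trem2-/- D7 (knockout, 7 days after injury). Per the study's methods the mice were male and 10 weeks old when injured, and buprenorphine and saline were given just after injury. No such treatment of uninjured mice is described, so injury and this treatment cannot be told apart. The knockout was the germline C57BL/6J-Trem2em2Adiuj/J line, so the loss was not limited to myeloid cells. The labels give all 16 libraries an age of 16 weeks and describe homogenized joints of diabetic and control mice, which differs from the methods of the study, in which joints were digested into cells. They do not say whether a library held 1 mouse or several. The methods refer to the single-cell section for how bulk cells were obtained, and that section includes a separation of immune from non-immune cells. Whether the bulk libraries were sorted in this way is not stated.

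Cyclooxygenases turn arachidonic acid into prostaglandin H2. Ptgs1 (COX-1) is the isoenzyme found in most tissues, Ptgs2 (COX-2) is the one induced in inflammation and the target of selective anti-inflammatory drugs, and Ptges (microsomal prostaglandin E synthase-1) converts their product to prostaglandin E2, a mediator of joint pain and swelling. Leukotrienes are made mostly by myeloid cells: Alox5 (5-lipoxygenase) acts with its membrane partner Alox5ap (FLAP) to form leukotriene A4, and Lta4h hydrolyses it to leukotriene B4, which attracts neutrophils. Alox15 is the 12/15-lipoxygenase of mouse eosinophils and some macrophages, Anxa1 codes for annexin A1, a glucocorticoid-induced protein that signals through formyl peptide receptors, and Fpr1 codes for the high-affinity receptor of bacterial formyl peptides on neutrophils.

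In the GRCm38 build with GENCODE M21 annotation, Ptgs1 lay at chr2:36230426-36252272 (plus strand), Ptgs2 at chr1:150100031-150108227 (plus), Ptges at chr2:30889471-30929863 (minus) and Alox5 at chr6:116410077-116461178 (minus). Alox5ap lay at chr5:149264767-149288153 (plus), Lta4h at chr10:93453411-93484875 (plus), Alox15 at chr11:70344152-70352031 (minus), Anxa1 at chr19:20373428-20390944 (minus) and Fpr1 at chr17:17876471-17883940 (minus). Each value below sums reads over the gene's exons. Exons of Ptgs1 overlapped Gm43621 on the other strand and exons of Alox5ap overlapped Gm19719, so for these genes the strand setting of the read counting, which is not given in the sources used here, could matter. These overlaps covered 1.99% of the 75-base windows of Ptgs1 and 3.2% of those of Alox5ap, and no other member shared a window with another gene.

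The promoters below show the sequence upstream of the 2 cyclooxygenases, of the terminal synthase that rose after injury, and of 2 genes that fell together in the knockout. They come from RefSeq (GRCm38.p6) and are given 5′ to 3′ on the strand of the gene. Each runs from 250 bases before to 50 bases after the start that RefSeq annotates. For Ptges this start lies inside the GENCODE span given above, so the annotations differ in where the gene begins. Of the 9 members 7 had an entry. Capitals mark matches, on either strand, to TATAAA (the TATA box), GGGCGG (the GC box), CGTCA (a cAMP response element core), GAGGAAG (an ETS core) and TTGCNNAA (C/EBP), and no match overlapped another.
Ptgs1, chr2:36230176-36230475: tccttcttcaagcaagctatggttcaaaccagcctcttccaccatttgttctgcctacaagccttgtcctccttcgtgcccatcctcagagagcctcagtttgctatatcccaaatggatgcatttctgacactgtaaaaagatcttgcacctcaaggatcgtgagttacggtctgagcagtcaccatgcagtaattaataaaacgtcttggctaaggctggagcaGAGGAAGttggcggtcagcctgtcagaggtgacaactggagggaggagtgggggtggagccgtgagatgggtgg
Ptgs2, chr1:150099781-150100080: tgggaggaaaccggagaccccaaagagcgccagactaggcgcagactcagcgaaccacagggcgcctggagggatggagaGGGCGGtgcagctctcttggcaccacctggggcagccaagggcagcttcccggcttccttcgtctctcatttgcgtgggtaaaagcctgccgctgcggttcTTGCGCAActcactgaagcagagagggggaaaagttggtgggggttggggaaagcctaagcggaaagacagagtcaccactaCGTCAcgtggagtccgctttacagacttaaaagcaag
Ptges, chr2:30903248-30903547, minus strand: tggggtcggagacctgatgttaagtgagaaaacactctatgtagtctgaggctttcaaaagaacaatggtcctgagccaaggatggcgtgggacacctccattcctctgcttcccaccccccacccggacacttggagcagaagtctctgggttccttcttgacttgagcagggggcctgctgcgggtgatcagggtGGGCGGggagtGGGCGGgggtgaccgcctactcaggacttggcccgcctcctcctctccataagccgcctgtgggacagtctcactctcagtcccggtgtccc
Alox5, chr6:116461129-116461428, minus strand: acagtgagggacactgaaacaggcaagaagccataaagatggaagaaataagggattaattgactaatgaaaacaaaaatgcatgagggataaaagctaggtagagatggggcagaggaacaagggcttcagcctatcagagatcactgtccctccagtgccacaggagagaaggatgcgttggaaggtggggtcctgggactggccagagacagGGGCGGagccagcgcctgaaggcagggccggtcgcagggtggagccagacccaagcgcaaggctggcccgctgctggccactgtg
Fpr1, chr17:17883890-17884189, minus strand: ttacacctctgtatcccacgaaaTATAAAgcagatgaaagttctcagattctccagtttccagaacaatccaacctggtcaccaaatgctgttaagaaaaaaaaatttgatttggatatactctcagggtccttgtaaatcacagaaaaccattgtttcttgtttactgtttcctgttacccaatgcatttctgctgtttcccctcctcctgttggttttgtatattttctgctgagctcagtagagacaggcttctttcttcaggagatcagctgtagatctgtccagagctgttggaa
Counted from the annotated start as 0, Ptgs2 held GGGCGG at -170, TTGCNNAA at -69 and CGTCA at 13, whereas Ptgs1 held GAGGAAG at -24 and none of these. Ptges held GGGCGG at -53 and -42, Alox5 held it at -35, and Fpr1 held TATAAA at -227. Among 32851 RefSeq promoters of the same length, 13.6% held TATAAA, 35.7% GGGCGG, 20.8% CGTCA, 13.6% GAGGAAG and 10.8% TTGCNNAA, so these letters were common and a match was only a description.

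Libraries held between 11567073 and 32867818 reads on listed genes, and 3 reads, taken as the limit of detection, came to 0.101 to 0.25 CPM. Every member stood above that limit in every library, the lowest being Alox15 with 21 reads in 1 library. Trem2 was measured at 10.7 to 22.5 CPM in WT D7 and at 3.42 to 4.84 CPM in Trem2-/- D7, and the groups overlapped at D0 (2.51 to 5.61 CPM against 0.948 to 2.68 CPM), so the knockout libraries kept reads on the gene. The uninjured libraries differed among themselves in leukocyte and eosinophil genes. The summed level of 6 leukocyte genes (Ptprc, Coro1a, Laptm5, Cd53, Arhgdib and Rac2) ran from 2284 to 4806 CPM in WT D0 and from 2906 to 5229 CPM in Trem2-/- D0, and fell to 1341 to 2751 CPM in WT D7 and 987 to 1251 CPM in Trem2-/- D7. That of 4 eosinophil genes was 507 and 385 CPM in WT D0 replicates 2 and 3 against 63.3 and 208 CPM in replicates 1 and 4, and 347 and 404 CPM in Trem2-/- D0 replicates 1 and 3 against 59.4 and 162 CPM in replicates 2 and 4. The defining markers of the labelled tissue were present, with summed levels of at least 663 CPM for 4 chondrocyte genes and 7614 CPM for 7 fibroblast genes in all libraries. In bulk samples, fewer cells of a type, less RNA per cell and a larger share of RNA from other cells cannot be told apart.

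Per kilobase of exon, Anxa1 and Ptgs2 were the most abundant members in all 4 groups, and Ptges and Alox15 the least. The group mean level of Anxa1 ranged from 221 to 265 CPM per kb and that of Ptgs2 from 117 to 165. Alox5ap followed at 27.7 to 119 CPM per kb and Fpr1 at 26.7 to 104, and Lta4h stood at 14.9 to 41. Ptgs1 ranged from 10.2 to 13.3 CPM per kb and Alox5 from 4.76 to 19.4. Ptges stood at 1.5 to 4.7 and Alox15 at 0.94 to 3.18 CPM per kb.

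After injury Ptges rose in both genotypes, while Alox5, Alox5ap, Lta4h and Alox15 fell in both. In WT mice Ptgs2 was also called higher, so that 6 of 9 members were called by the rule of the study (p under 0.05, with the higher level more than 25% above the lower). In the knockout Ptgs1 and Fpr1 also fell and Ptgs2 missed the threshold, so that 7 of 9 members were called. Injury changed a large part of all genes measured: 37.4% of 13173 genes were called in WT mice (19.3% higher and 18.2% lower) and 54.5% in Trem2-/- mice (26.5% higher and 27.9% lower). The share of members called was thus to be read against a high background, and their direction was mostly downward, with a median log2 fold change of -0.71 in WT and -1.17 in Trem2-/- mice against -0.045 and -0.042 over all genes. With a Benjamini-Hochberg adjusted p under 0.05 (limma), 4 of 9 members were called in WT mice, where 28.5% of all genes were, and 7 of 9 in Trem2-/- mice, where 53.2% were. The values of D0 and D7 libraries did not overlap for 2 members in WT mice (22.2% of all genes) and for 7 in Trem2-/- mice (52.4% of all genes).

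**Figure D1:**
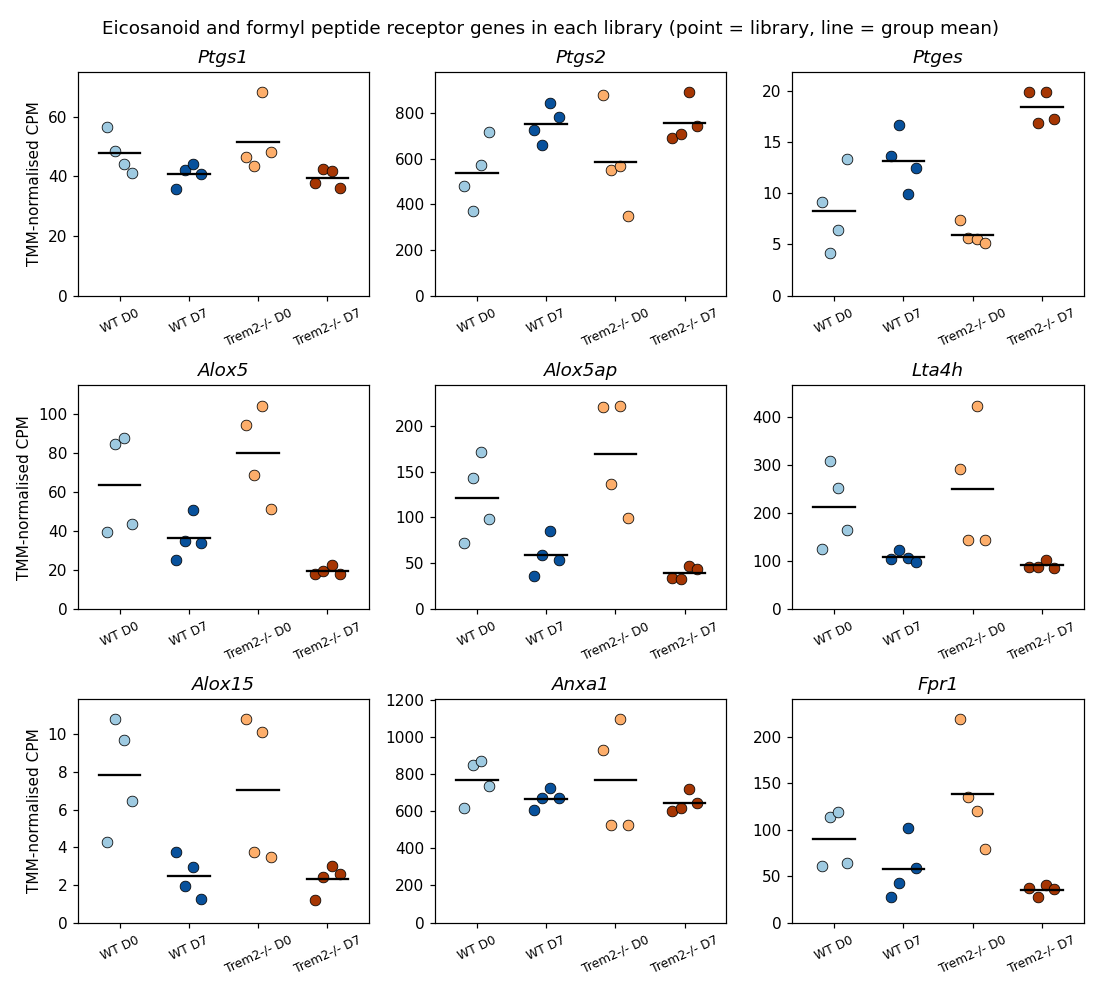
Level of each member in TMM-normalised CPM (vertical axis, from 0) in each library (points) of the 4 groups, with the group mean (line). Ptges stood at 16.9 to 19.9 CPM in Trem2-/- D7 against 5.1 to 7.39 CPM in Trem2-/- D0, and Alox5 at 17.8 to 22.6 CPM against 51.4 to 104 CPM.

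Ptgs2 was among the most abundant transcripts of the set before and after injury. In WT D0 replicates 1 to 4 it was measured at 482, 372, 570 and 717 CPM, and in WT D7 at 726, 658, 845 and 784 CPM. The groups overlapped, since the highest uninjured library stood above the lowest injured one. Ptgs2 rose by 0.53 ± 0.24 on the log2 scale (SE, n = 4 per group; limma on log2(CPM + 1), adjusted p = 0.106), a 1.44-fold difference, and was called in 6 of the 16 fits that left out 1 library. The call was also lost in a fit with the replicate number as a block, where the difference was again 0.53, and under quantile scaling, edgeR and voom. Knockout libraries went from 880, 552, 569 and 347 CPM to 689, 706, 891 and 742 CPM. There the log2 difference was 0.44 ± 0.24 (adjusted p = 0.136) and missed the threshold, and Trem2-/- D0 replicate 1 was above 3 of the 4 injured libraries. The spread between uninjured libraries (SD 146 CPM in WT and 220 CPM in Trem2-/-) was larger than that between injured ones (79.9 and 92.1 CPM).

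Ptgs1, the constitutive isoenzyme, did not rise with Ptgs2. Its level lay between 41.3 and 56.6 CPM in WT D0 and between 35.7 and 44.2 CPM in WT D7, overlapping ranges with a log2 difference of -0.22 ± 0.14 (adjusted p = 0.23). In Trem2-/- mice it fell by 0.36 ± 0.14 on the log2 scale (adjusted p = 0.0376), from 46.4, 43.5, 68.3 and 48.3 CPM to 37.7, 42.6, 41.9 and 36.2 CPM. The call was lost without Trem2-/- D0 replicate 3, the highest library, where the difference was -0.22, and without Trem2-/- D7 replicate 4, where it was -0.31.

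The ratio of the isoenzymes, taken within each library as the difference of log2(CPM + 1) values, was higher after injury in both genotypes without passing the test. The log2 ratio of Ptgs2 to Ptgs1 averaged 3.43 ± 0.54 (SD, n = 4) in WT D0 and 4.17 ± 0.17 in WT D7, a difference of 0.74 (exact two-sided permutation p = 0.0571, adjusted over 8 ratio tests 0.171). The knockout averaged 3.43 ± 0.63 at D0 and 4.22 ± 0.16 at D7, a difference of 0.79 (exact permutation p = 0.0857, adjusted p = 0.171). Injured libraries lay close together while uninjured libraries spanned 2.91 to 4.09 in WT and 2.82 to 4.22 in Trem2-/- mice. With 4 libraries against 4, the smallest p such a test can give is 0.0286, so no ratio could pass after adjustment unless several did.

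**Figure D2:**
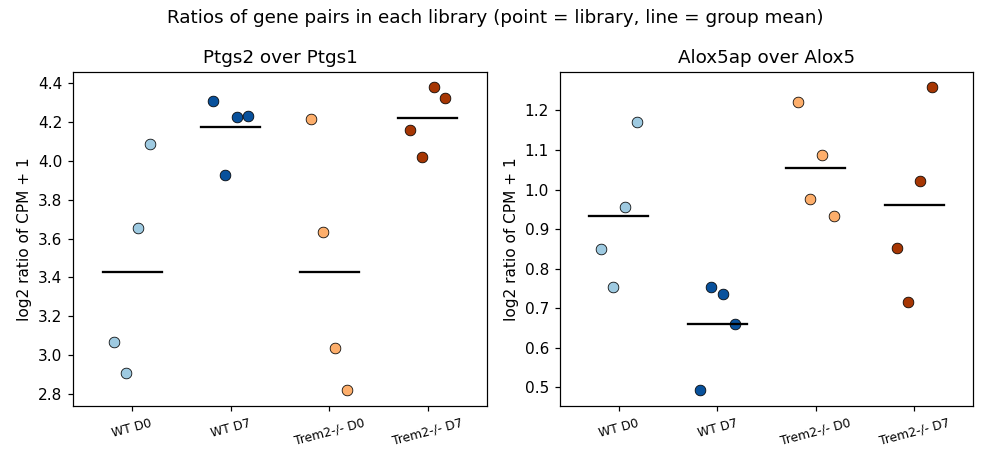
Log2 ratio of Ptgs2 to Ptgs1 (left) and of Alox5ap to Alox5 (right), each from CPM + 1 (vertical axes), in each library (points) of the 4 groups, with the group mean (line). The ratio of the cyclooxygenases averaged 3.43 in both D0 groups and 4.17 and 4.22 in the D7 groups, and the ratio of Alox5ap to Alox5 was 0.49 to 0.75 in WT D7, below the 0.76 to 1.17 of WT D0.

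Ptges showed the clearest rise of the set. In WT mice it went from 9.2, 4.16, 6.38 and 13.4 CPM to 13.7, 16.7, 9.93 and 12.5 CPM, overlapping ranges with a rise of 0.70 ± 0.24 on the log2 scale (1.62-fold, adjusted p = 0.0437). The knockout libraries went from 7.39, 5.62, 5.49 and 5.1 CPM to 19.9, 16.9, 19.9 and 17.3 CPM, a rise of 1.51 ± 0.24 (2.84-fold, adjusted p = 0.000157). Every injured knockout library stood above every other library of the series, and the mean of 18.5 ± 1.6 CPM in Trem2-/- D7 was the highest of the 4 groups. Fibroblast genes moved in the same direction: 5 of 7 (Col1a1, Col1a2, Pdgfra, Pdgfrb, Dcn, Lum and Prg4 being the list) rose in WT mice and 6 of 7 in Trem2-/- mice, with median log2 fold changes of 1.14 and 1.80, and their summed level was 7614 to 42896 CPM in D0 and 64880 to 115451 CPM in D7 libraries. Chondrocyte genes also rose, 4 of 4 in each genotype, with medians of 2.89 in WT and 3.62 in Trem2-/- mice. Of 7 monocyte and macrophage genes, 5 rose in WT mice, and 4 rose and 2 fell in Trem2-/- mice. The part of any of these cells in the rise of Ptges was not tested.

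The 5-lipoxygenase pair fell together. In WT mice Alox5 went from 39.4, 84.4, 87.6 and 43.3 CPM to 25.1, 34.7, 50.7 and 33.9 CPM, and fell by 0.75 ± 0.28 on the log2 scale (1.68-fold, adjusted p = 0.0544). The WT D0 libraries formed a high pair (replicates 2 and 3) and a low pair, and the low pair overlapped the injured range. The call was lost without WT D0 replicate 2 or 3 or WT D7 replicate 1, where the difference was -0.59, -0.57 and -0.60. Alox5 in Trem2-/- mice went from 94.2, 68.7, 104 and 51.4 CPM to 18.1, 19.6, 22.6 and 17.8 CPM, and fell by 1.93 ± 0.28 (3.8-fold, adjusted p = 7.03e-05), with no overlap.

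Its activating partner Alox5ap showed the same pattern at a higher level. In WT mice it went from 71.8, 143, 171 and 98.7 CPM to 35.7, 59.2, 85.1 and 54.1 CPM and fell by 1.02 ± 0.31 on the log2 scale (2.03-fold, adjusted p = 0.0243). Among the Trem2-/- libraries it went from 221, 136, 222 and 99 CPM to 33.5, 32.8, 46.9 and 44 CPM and fell by 2.02 ± 0.31 (4.05-fold, adjusted p = 0.000108). The WT groups overlapped at their edges, at 71.8 and 85.1 CPM, and the knockout groups were separate. The log2 ratio of Alox5ap to Alox5 went from 0.93 ± 0.18 to 0.66 ± 0.12 (SD, n = 4) in WT mice without overlap, the smallest p the design allows (exact permutation p = 0.0286, adjusted p = 0.171), and from 1.05 ± 0.13 to 0.96 ± 0.23 in Trem2-/- mice (exact permutation p = 0.543, adjusted p = 0.724).

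Lta4h, which completes leukotriene B4 synthesis, fell in both genotypes without overlap. In WT mice it went from 124, 307, 252 and 165 CPM to 104, 122, 106 and 98.3 CPM, and fell by 0.89 ± 0.32 on the log2 scale (1.85-fold, adjusted p = 0.0461). The Trem2-/- libraries went from 291, 143, 423 and 143 CPM to 88.4, 87.7, 102 and 85.1 CPM, and fell by 1.30 ± 0.32 (2.46-fold, adjusted p = 0.00308). The injured libraries were nearly alike, whereas the uninjured ones differed up to the SD of 135 CPM seen in Trem2-/- D0.

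Alox15 had the lowest level of the members after injury, and fell in both genotypes. At D0 Ptges was lower per kilobase of exon. In WT mice Alox15 went from 4.3, 10.8, 9.67 and 6.48 CPM to 3.76, 1.93, 2.96 and 1.3 CPM and fell by 1.33 ± 0.36 on the log2 scale (2.52-fold, adjusted p = 0.0139). In Trem2-/- mice it went from 10.8, 3.73, 10.1 and 3.48 CPM to 1.21, 2.41, 3.02 and 2.59 CPM and fell by 1.17 ± 0.36 (2.24-fold, adjusted p = 0.0125). Neither genotype showed overlap between days. The uninjured libraries with the most Alox15 and Lta4h, WT D0 replicates 2 and 3 and Trem2-/- D0 replicates 1 and 3, were those with the highest summed eosinophil, neutrophil and leukocyte genes alike. All 4 eosinophil genes (Epx, Prg2, Ccr3 and Siglecf) fell in both genotypes, with median log2 fold changes of -1.49 and -1.63. The part of these cell types in the differences was not tested.

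Anxa1 was abundant and did not pass the test in any comparison. It lay at 617 to 871 CPM in WT D0 and 604 to 725 CPM in WT D7, with a log2 difference of -0.19 ± 0.21 (adjusted p = 0.511, 95% interval -0.64 to 0.26). In Trem2-/- D0 it split into 932 and 1096 CPM in replicates 1 and 3 and 528 and 525 CPM in replicates 2 and 4, and in Trem2-/- D7 it lay at 601 to 719 CPM. The log2 difference there was -0.18 ± 0.21 (adjusted p = 0.487, 95% interval -0.63 to 0.27). The interval did not reach the size of the falls of the 5-lipoxygenase pair in the same genotype.

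Fpr1 fell after injury in Trem2-/- mice. It went from 219, 135, 120 and 79.2 CPM to 36.8, 28, 40.7 and 35.9 CPM there, and fell by 1.85 ± 0.36 on the log2 scale (3.62-fold, adjusted p = 0.000601), with no overlap. In WT mice it was at 60.6, 114, 119 and 64.2 CPM before and 27.3, 42.9, 102 and 58.6 CPM after injury, a log2 difference of -0.71 ± 0.36 (adjusted p = 0.14) that missed the threshold. WT D7 replicate 3 was the exception, with a level inside the range of the uninjured libraries, and without it the WT difference was -1.04 and was called, as it was without WT D0 replicate 1 (-0.88) or 4 (-0.85) and under quantile scaling of all libraries (-0.78). Neutrophil genes (S100a8, S100a9, Retnlg, Ly6g, Mmp8, Mmp9, Cxcr2 and Csf3r) fell in 8 of 8 cases in both genotypes, with median log2 fold changes of -1.31 and -2.13. Their summed level was 10535 to 28394 CPM in D0 and 3169 to 11157 CPM in D7 libraries, the highest D7 library being WT D7 replicate 3. The part of neutrophils in the fall of Fpr1 was not tested.

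**Figure D3:**
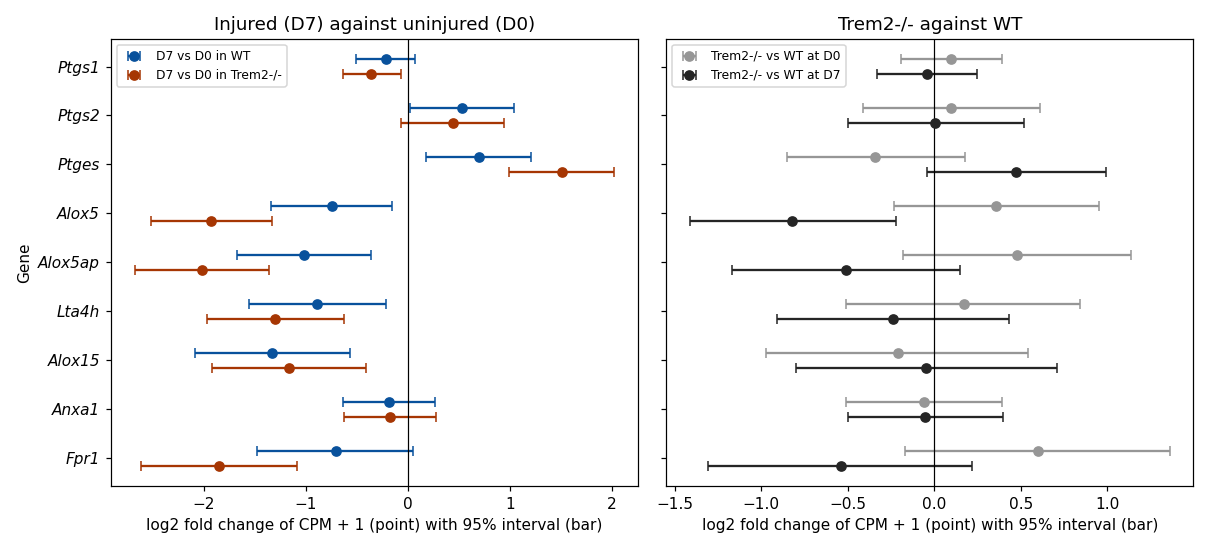
Log2 fold change of CPM + 1 (horizontal axes; points) with its 95% interval (bars) for the 9 members, for D7 against D0 in each genotype (left) and for Trem2-/- against WT on each day (right). Alox5, Alox5ap and Fpr1 lay at -1.93, -2.02 and -1.85 in injured knockout mice, and among the genotype differences only the interval of Alox5 at D7, -1.41 to -0.22, left out 0.

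Between genotypes, few members differed. At D7 Alox5 was the 1 of 9 members called, where 5.72% of all genes were, and was lower in Trem2-/- than in WT mice by -0.82 ± 0.28 on the log2 scale (19.5 against 36.1 CPM, 4 of 4 knockout libraries below every WT library). Its adjusted p was 0.558 (limma), and no gene passed an adjusted p under 0.05 in this comparison by limma or edgeR, 1 (Trem2 itself) by voom, and 958 had an unadjusted p under 0.05. The unadjusted call for Alox5 held in all 16 fits that left out 1 library. The values did not overlap for Alox5 and Ptges, 2 of 9 members against 8.33% of all genes. Ptges was higher by 0.47 ± 0.24 (95% interval -0.043 to 0.99, adjusted p = 0.713). Alox5ap and Fpr1 differed by -0.51 ± 0.31 and -0.54 ± 0.36 with overlapping values, and Ptgs2 by 0.0065 ± 0.24, an interval of -0.50 to 0.52.

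The leukocyte genes were also lower in Trem2-/- D7, with 5 of 6 called and a median log2 difference of -0.69, and the neutrophil genes had 1 of 8 called and a median of -0.55. Ptprc is among the genes the study itself named from these libraries, so the leukocyte list is not independent evidence of that direction. The level of Alox5 minus the mean of the leukocyte list differed between the genotypes at D7 by -0.12 (-3.08 ± 0.14 in Trem2-/- against -2.96 ± 0.064 in WT, SD, n = 4; exact two-sided permutation p = 0.171, adjusted over 40 such tests 0.361). At D0 no member was called, where 2.15% of all genes were, and no member was without overlap, where 0.979% of genes were. The largest D0 difference was that of Fpr1, 0.60 ± 0.36 higher in Trem2-/- mice (adjusted p = 0.9996), and no gene passed the adjusted threshold by limma, edgeR or voom while 385 had an unadjusted p under 0.05.

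The response to injury differed between genotypes for 4 of 9 members by unadjusted p, where 7.79% of all genes were called. Alox5 fell further in Trem2-/- mice by -1.17 ± 0.39 on the log2 scale, Alox5ap by -0.99 ± 0.44 and Fpr1 by -1.14 ± 0.51, and Ptges rose further by 0.81 ± 0.34. Their adjusted p-values ran from 0.579 to 0.606, and no gene passed the adjusted threshold by limma, edgeR or voom while 1075 had an unadjusted p under 0.05. Alox5 held its unadjusted call in 16 of 16 fits without 1 library, Ptges in 9, and Alox5ap and Fpr1 in 7 each. The same term was negative for the leukocyte list, with 5 of 6 genes called lower and a median of -0.96, and for the neutrophil list, with 1 of 8 called and a median of -0.90, and it was 0.66 for the fibroblast list, with 1 of 7 called. For Lta4h, Alox15, Anxa1, Ptgs1 and Ptgs2 the term lay between -0.41 and 0.17 and did not pass.

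**Figure D4:**
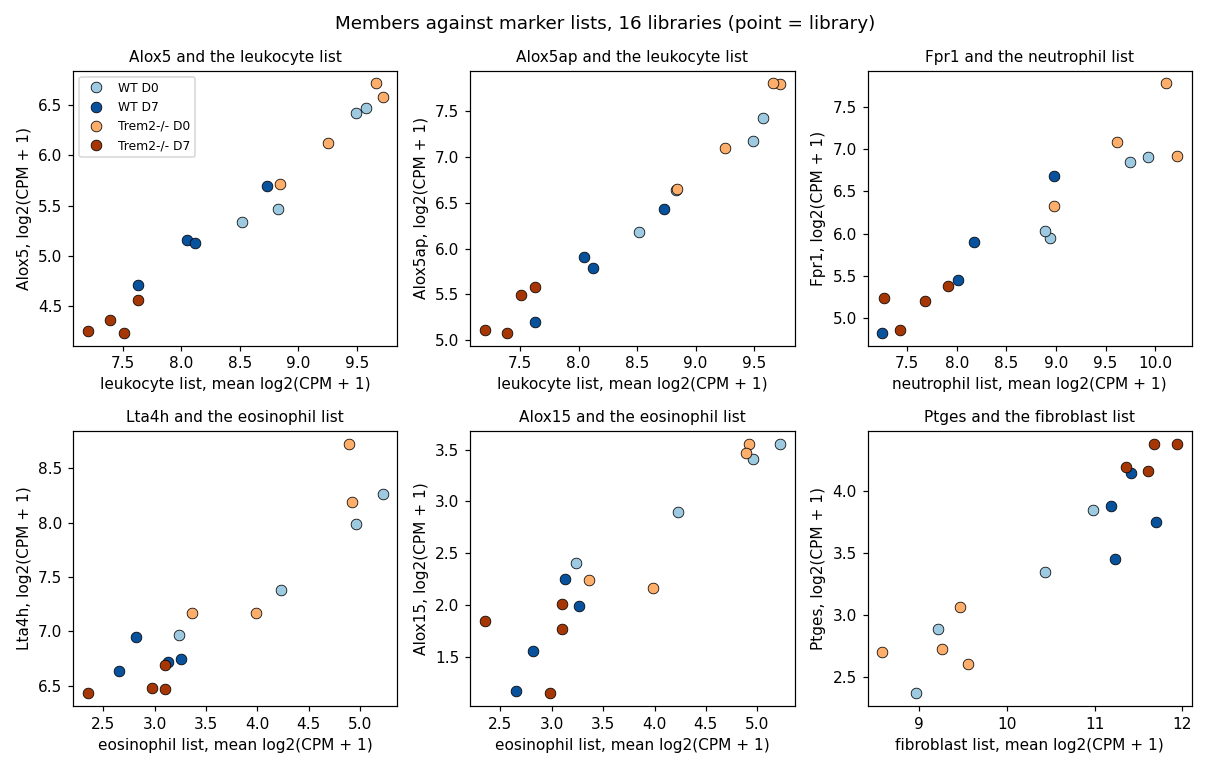
Level of 6 members (vertical axes) against the mean of a marker list (horizontal axes), both as log2(CPM + 1), in the 16 libraries (points, coloured by group). After removal of the group means the correlation was 0.97 for Alox5 and Alox5ap with the leukocyte list, 0.89 for Fpr1 with the neutrophil list, 0.86 and 0.79 for Lta4h and Alox15 with the eosinophil list, and 0.79 for Ptges with the fibroblast list.

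Within groups, several members varied together with the leukocyte, neutrophil or eosinophil list, and less with the monocyte and macrophage list. As a description over the 16 libraries, with group means removed and with library and depth shared by both measures, Alox5 and Alox5ap correlated with each other at 0.94 and each with the leukocyte list at 0.97. These held on each day, at 0.99 and 0.98 over the 8 D0 libraries and at 0.95 and 0.95 over the 8 D7 libraries. Alox5 was also at 0.98 and 0.95 with the neutrophil list on the same days. Fpr1 stood at 0.85 at D0 and 0.94 at D7 with the neutrophil list and at 0.88 and 0.91 with the leukocyte list. At D0, Lta4h stood at 0.91, 0.88 and 0.87 and Alox15 at 0.92, 0.91 and 0.88 with the eosinophil, leukocyte and neutrophil lists, and at D7 these values were 0.29, 0.12 and 0.14 and 0.38, 0.12 and 0.029. The lists shared their highest D0 libraries, and no difference between lists was tested. Lta4h and Anxa1 correlated at 0.93. Anxa1, which was not called after injury, stood at 0.81 at D0 and 0.87 at D7 with the leukocyte list. With the neutrophil list it stood at 0.82 and 0.89. Over the 16 libraries the monocyte and macrophage list stood at 0.17 with Alox5, 0.25 with Alox5ap, 0.34 with Fpr1 and 0.042 with Alox15. It stood at -0.18 with Lta4h, -0.17 with Anxa1 and -0.66 with Ptgs1. With the fibroblast list Alox5, Alox5ap and Lta4h stood at -0.85, -0.68 and -0.71 at D0. At D7 these were 0.19, 0.077 and 0.29. Ptges followed the fibroblast list at 0.87 at D0 and 0.31 at D7, and Ptgs2 stood at 0.31 at D0 and 0.66 at D7 with both the neutrophil and the leukocyte list.

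Members were also taken relative to the marker lists, a measure added after seeing the data. After injury the 5-lipoxygenase pair shifted against the leukocyte list by -0.082 to 0.009, except for Alox5 in WT mice, where the shift was 0.22. With n = 4 per group, a difference that did not pass does not show that the falls were equal. The part of leukocytes in the falls of the pair was not tested. In Trem2-/- mice Alox5 minus the leukocyte mean was -3.09 ± 0.093 at D0 and -3.08 ± 0.14 at D7 (SD, n = 4; difference 0.009, exact permutation p = 0.943, adjusted p = 0.992). For Alox5ap the difference was -0.082 in Trem2-/- and -0.055 in WT mice (exact permutation p = 0.457 and 0.6, adjusted p = 0.653 and 0.75). In WT mice the difference for Alox5 was 0.22 without overlap, its fall being smaller than that of the leukocyte genes (exact permutation p = 0.0286, the smallest possible, adjusted p = 0.143). Against the neutrophil list Alox5 differed by 0.52 in WT mice without overlap (exact permutation p = 0.0286, adjusted p = 0.143). In Trem2-/- mice that difference was 0.23 (exact permutation p = 0.143, adjusted p = 0.361). Alox5ap differed from the neutrophil list by 0.25 in WT and 0.14 in Trem2-/- mice (exact permutation p = 0.171, adjusted p = 0.361 for each). Relative to the neutrophil list, Fpr1 was higher by 0.56 in WT mice after injury (exact permutation p = 0.0286, adjusted p = 0.143) and by 0.30 in Trem2-/- mice (exact permutation p = 0.371, adjusted p = 0.55). Lta4h and Alox15 minus the neutrophil mean were higher at D7 in Trem2-/- mice by 0.86 and 0.99 (exact permutation p = 0.0286 for each, adjusted p = 0.143), and in WT mice the differences were 0.38 and -0.06 (exact permutation p = 0.371 and 1.0000, adjusted p = 0.55 and 1.0000). Minus the leukocyte mean, Lta4h, Alox15 and Fpr1 differed after injury by 0.64, 0.77 and 0.08 in Trem2-/- mice. The WT differences were 0.078, -0.36 and 0.26. Of these only Alox15 in Trem2-/- mice was without overlap (exact permutation p = 0.0286, adjusted p = 0.143). At D0 Alox15 differed between genotypes without overlap, by -0.48 (leukocyte list) and -0.57 (neutrophil list), with the same p-values. None of the 40 comparisons passed the adjusted threshold, which the smallest possible p made hard to reach.

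By the measure of likeness, the highest correlation of deviations from the group means over 16 libraries among 10552 genes, the nearest genes to Ptges were Itga11 (0.95), Lrrc15 (0.94) and Postn (0.94), the last coding for periostin, a matrix protein of activated fibroblasts. The nearest to Alox5 were Arhgap9 (0.99), Sqrdl (0.98) and Mapk13 (0.98). Those nearest to Alox5ap were Cfp (0.99), which codes for properdin, Cyba (0.98), a subunit of the phagocyte oxidase, and Mmp8 (0.97), the neutrophil collagenase. Lta4h was nearest to Cep19, Rgs19 and Serpinb1a (0.98 each), and Alox15 to Dnajc2, Lair1 and Dclre1b (0.93 each). Anxa1 was nearest to Orm1, Prss57 and Lin28a (0.96 each), Fpr1 to Card6, Glrx and Ifnar2 (0.96 each), Ptgs2 to Med10 (0.87), Ube2f (0.84) and Sec22b (0.83), and Ptgs1 to Map3k3 (0.84), Tmem33 (0.81) and Sowahc (0.80).

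Of 46 other genes of these pathways, 34 were listed and 32 tested. After injury 11 were called higher and 8 lower in WT mice, and 12 higher and 12 lower in Trem2-/- mice. Of all genes, 37.4% were called in WT mice (19.3% higher, 18.2% lower) and 54.5% in Trem2-/- mice (26.5% higher, 27.9% lower). The counts for each role below are to be read against these shares. An adjusted p under 0.05 (limma) was reached by 13 and 24 of the 32, against 28.5% and 53.2% of all genes. The median log2 fold changes were 0.14 and 0.091, so the downward median of the members was not seen across the wider list. Among 10 tested genes of prostanoid synthesis and breakdown, 5 rose in each genotype, while none fell in WT and 2 fell in Trem2-/- mice. Pla2g5, a secreted phospholipase, rose by 1.59 ± 0.50 and 1.52 ± 0.50 on the log2 scale in WT and Trem2-/- mice, and Hpgds, the haematopoietic prostaglandin D synthase, by 1.13 ± 0.19 in each. Ptgis, the prostacyclin synthase, rose by 0.82 ± 0.36 and 1.46 ± 0.36. The prostaglandin transporter Slco2a1 rose by 0.67 ± 0.29 in WT and 0.83 ± 0.29 in Trem2-/- mice. The cytosolic phospholipase Pla2g4a rose by 0.54 ± 0.18 and 0.84 ± 0.18 in the same order.

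Of 7 tested prostanoid receptors, 1 rose and 4 fell in WT mice, and 2 rose and 5 fell in Trem2-/- mice. The prostaglandin E2 receptors went both ways: Ptger3 (EP3) rose by 0.55 ± 0.21 and 0.83 ± 0.21, while Ptger2 (EP2) fell by 0.61 ± 0.23 and 1.43 ± 0.23 and Ptger4 (EP4) fell by 0.50 ± 0.18 and 0.98 ± 0.18, in WT and Trem2-/- mice. The prostacyclin receptor Ptgir fell in both genotypes, with log2 differences of -0.49 ± 0.17 in WT and -0.64 ± 0.17 in Trem2-/- mice. Ptgfr, the prostaglandin F receptor, rose by 1.48 ± 0.30 in Trem2-/- mice, from 0.418 to 1.78 CPM to 3.42 to 7.5 CPM, and its WT difference of 0.23 ± 0.30 did not pass.

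Of 9 tested leukotriene and lipoxygenase genes, 1 rose and 3 fell in WT mice, and 1 rose and 4 fell in Trem2-/- mice. Ltb4r1, the leukotriene B4 receptor of neutrophils, went from 19.6, 51.2, 49.4 and 25.7 CPM to 8.57, 13.1, 15.6 and 8.61 CPM in WT mice and fell by 1.52 ± 0.36 on the log2 scale. It fell by 2.05 ± 0.36 in Trem2-/- mice. Mgst2, a microsomal transferase that can make leukotriene C4, fell by 1.70 ± 0.41 and 2.06 ± 0.41, and Ephx2, the soluble epoxide hydrolase, by 0.56 ± 0.20 and 0.67 ± 0.20. Dpep2, a dipeptidase that converts leukotriene D4 to E4, was the exception and rose by 1.78 ± 0.25 and 1.19 ± 0.25, from 1.79 to 4.41 CPM to 8.67 to 15 CPM in WT mice.

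Of 6 tested annexins and relatives, 4 rose and 1 fell in each genotype. Anxa5 rose by 0.95 ± 0.20 and 1.32 ± 0.20 in WT and Trem2-/- mice. In the same order S100a10, the partner of annexin A2, rose by 0.57 ± 0.21 and 0.79 ± 0.21, and Anxa2 itself by 0.57 ± 0.14 and 0.55 ± 0.14. Cmklr1, the receptor of chemerin, rose by 1.11 ± 0.22 and 0.63 ± 0.22. Anxa3 fell in both genotypes, with log2 differences of -0.51 ± 0.12 in WT and -0.91 ± 0.12 in Trem2-/- mice.

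**Figure D5:**
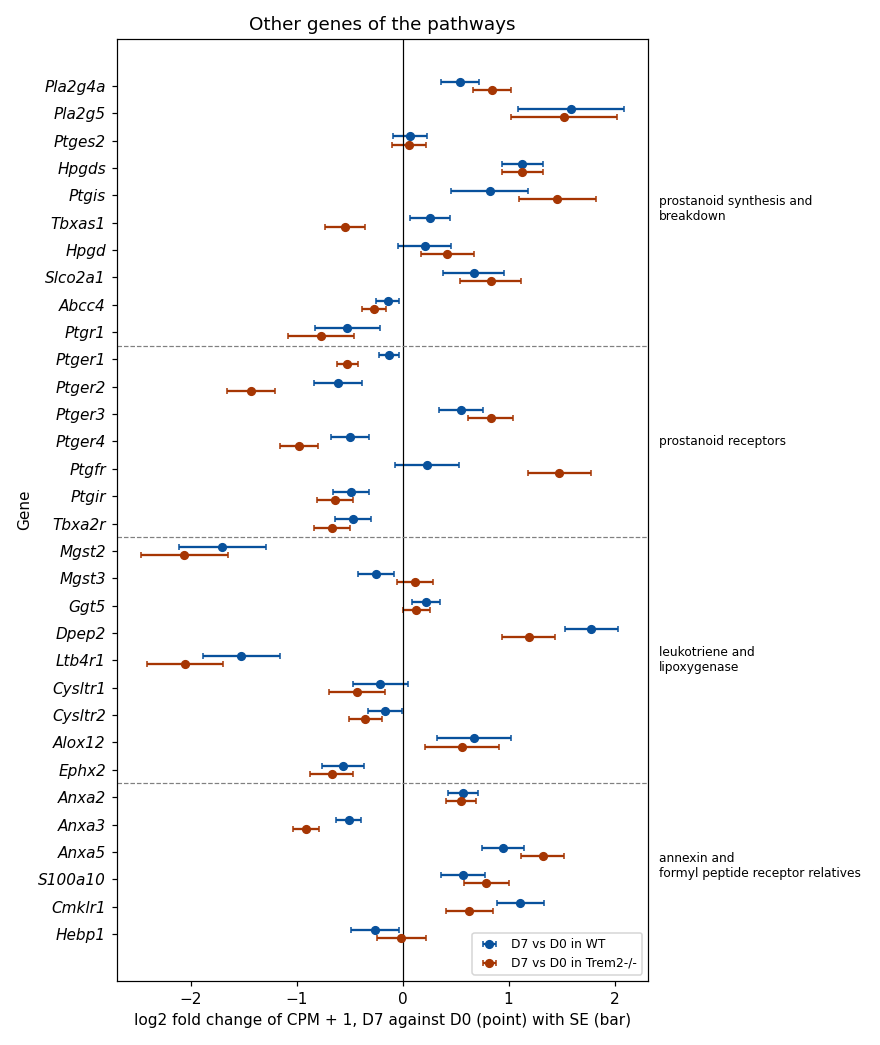
Log2 fold change of CPM + 1, D7 against D0 (horizontal axis; points, with SE as bars), for 32 other genes of the pathways (rows, grouped by role) in WT and Trem2-/- mice. Dpep2 lay at 1.78 and 1.19 while Mgst2 and Ltb4r1 lay between -2.06 and -1.52.

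Between genotypes, 5 of the 32 other genes were called lower in Trem2-/- mice at D7 and 3 at D0, and none was called higher. Of all genes, 5.72% were called in either direction at D7 and 2.15% at D0. At D0 Ptger1 (EP1) and Ggt5, named after their values were seen, were each higher by 0.31 on the log2 scale in Trem2-/- mice without overlap (limma, unadjusted p = 0.00468 and 0.0284, adjusted p = 0.9996), and missed the call because the 1.24-fold difference was under the 25% limit. Hpgds was called on both days, with different libraries on each. At D0 it stood at 2.87, 3.06, 4.31 and 4.9 CPM in WT and at 2.82, 1.9, 1.43 and 2.86 CPM in Trem2-/- mice, and at D7 at 9.33, 7.19, 12.2 and 9.21 CPM and at 7.16, 6.48, 5.21 and 5.34 CPM. The log2 difference was -0.56 ± 0.19 on either day, with neighbouring libraries as close as 2.86 and 2.87 CPM at D0 and 7.16 and 7.19 CPM at D7, and adjusted p of 0.9996 and 0.558. It was 1 of 8 genes called lower on both days, out of 753 genes called at D7 and 283 at D0, Trem2 being another of the 8, while 1 (Fam78b, named after its values were seen) was called higher on both and 21 in opposite directions.

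The other genes lower at D7 were Tbxas1 (thromboxane synthase) by -0.68 ± 0.19, Dpep2 by -0.63 ± 0.25, Ptger2 by -0.50 ± 0.23 and Tbxa2r (the thromboxane receptor) by -0.40 ± 0.17, and at D0 Hpgd (the prostaglandin dehydrogenase) by -0.65 ± 0.25 and Ptgfr by -0.65 ± 0.30. Tbxas1 was at 11.4, 11, 10.7 and 8.79 CPM in WT D7 and at 7.06, 6, 5.6 and 6.01 CPM in Trem2-/- D7, without overlap (adjusted p = 0.451). Of 7 listed monocyte and macrophage genes, 3 were called lower in Trem2-/- D7, with a median log2 difference of -0.38. Adgre1 and Csf1r of that list were also named by the study from these libraries. The part of these cells in the differences was not tested. None of these genes passed an adjusted threshold.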

How the data were processed

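Bulk RNA-seq of knee joint cells was measured in 16 mouse libraries, with 4 replicates for each combination of genotype (WT or Trem2-/-) and day (D0 or D7) that the labels give. The labels do not say that replicates were separate animals, so p-values measure the spread between these libraries. Per the submitters' processing notes and the study's methods, the authors used STAR against mm10 (GRCm38), featureCounts for gene counts and the TMM method of edgeR; versions are not given in the sources used here. The kit is named as stranded in the methods and as TruSeq RNA v2 in the labels. The deposited signal values are CPM relative to each library's TMM-scaled size, so a gene's value depends on all others in its library. The low values were whole multiples of 1 read, and 100% of values came out whole within 0.1 reads. The deposited table had 13734 rows, with 1 gene listed in 2 identical rows.

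Values were tested as log2(CPM + 1) with limma 3.58.1 (lmFit, eBayes with trend; R 4.3.3) across 13173 genes that reached 1 CPM in 4 or more libraries, all 4 groups in 1 fit. A call was the study's rule, p under 0.05 with the higher level more than 25% above the lower, and Benjamini-Hochberg adjusted p-values were taken over all genes tested. A fold change on this scale understates that of low genes. Ratios within a library were tested by exact permutation, two-sided, enumerating the 70 ways to split 8 libraries (scipy 1.17.1). Alternatives were the pseudocounts 0.1 and 5, no filter, a mean of at least 5 CPM, quantile and median-of-ratios scaling, edgeR 4.0.16 and voom on the recovered reads, a fit of only the groups compared, a replicate block, and each library left out. The comparison of members with marker lists within a library was added after seeing the data. The method was tested on simulated counts, drawn independently for each gene with a common dispersion. That test did not cover the variation that genes shared between these libraries. Depth was 11567073 to 32867818 reads per library. Intervals and SE of log2 differences came from the limma fit and reflect the spread between libraries, while floors cover counting error only.

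The members, pathway lists and marker lists were chosen with earlier results of these data known. Named were every member listed; of the other pathway genes those called in a comparison, at most 4 per role and comparison by largest fold change; Trem2; and for each member the 3 genes of at least 5 mean CPM with the most similar deviations from the group means. Exon lengths came from GENCODE M21, and promoters from RefSeq. One marker list is not reported here. Those for mast cells, platelets, erythroid cells, endothelium and skeletal muscle are given with the closing observations. The single-cell and flow cytometry experiments of the study were not analysed here.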

Additional observations from a re-analysis of the deposited data

Results flagged for a closer look

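The response to injury differed between genotypes, by an unadjusted interaction test (limma), for 9 of the 41 members and other pathway genes tested, and none passed the adjusted threshold. Of all 13173 genes, 1075 had an unadjusted p under 0.05 in this test and 7.79% were called by the rule of the study. Among the members, Ptges rose further in Trem2-/- mice (interaction 0.81 on the log2 scale), while Alox5 (-1.17), Alox5ap (-0.99) and Fpr1 (-1.14) fell further. Among the other genes, the prostaglandin F receptor Ptgfr had an interaction of 1.2496, thromboxane synthase Tbxas1 of -0.80, the prostaglandin E2 receptors Ptger1 and Ptger2 of -0.40 and -0.82, and Anxa3 of -0.40. Tbxas1 was at 5.5 to 11.9 CPM in WT D0 and 8.79 to 11.4 CPM in WT D7, but at 8.15 to 11 CPM in Trem2-/- D0 and 5.6 to 7.06 CPM in Trem2-/- D7. Its fall in Trem2-/- mice was called (-0.54), and its WT difference of 0.26 was not.

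In 7 of 172 groups of 4 libraries, 1 library stood apart from the other 3, with a gap past Dixon's critical value; chance gives about 8.6. No member was among them. The gap was 0.875 of the range for Pla2g4a in WT D7 replicate 4 (16.6 CPM against 19.2 to 19.6), 0.837 for Hpgd in WT D0 replicate 3 (7.23 against 4.25 to 4.74), 0.833 for Ptger2 in Trem2-/- D7 replicate 1 (3.56 against 2.02 to 2.27) and 0.861 for Tbxa2r in WT D0 replicate 1 (4.12 against 2.92 to 3.08). It was 0.869 for Ggt5 in Trem2-/- D7 replicate 2 (18.9 CPM against 22.9 to 23.5), 0.886 for Dpep2 in Trem2-/- D7 replicate 3 (5.04 against 8.41 to 8.84) and 0.906 for Hebp1 in WT D0 replicate 2 (19 against 7.17 to 8.28).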

How the results depend on the processing

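The counts of members called after injury, 6 in WT and 7 in Trem2-/- mice, stayed within 1.5 times under every alternative run, while the counts between genotypes did not. With an adjusted p under 0.05 all counts between genotypes and for the interaction went to 0, for members and for other pathway genes. Members called between genotypes at D7 were 3 with only the groups compared and 2 with a pseudocount of 5 or with voom, against 1, and other pathway genes called at D0 were 1 with a mean of at least 5 CPM or a pseudocount of 5, against 3. Over all genes, fitting only the groups compared called 1366 genes against 753 at D7 and 149 against 283 at D0, where edgeR called 466 and a pseudocount of 5 called 164. The call for Ptgs2 in WT mice was lost under quantile scaling (0.47), edgeR (0.49), voom (0.52), the adjusted p and the replicate block, and that for Alox5 under the adjusted p, while Fpr1 in WT mice was called under quantile scaling (-0.78). The lower Alox5ap to Alox5 ratio in WT D7 (-0.27) missed the threshold with a pseudocount of 0.1. Differences near 0 changed sign: Ptgs2 at D7 between genotypes under quantile scaling (-0.003), Anxa1 under edgeR (0.0053 at D0 and -0.056 in the interaction), and the Ptgs2 to Ptgs1 ratio at D0 with a pseudocount of 5 (0.0049). The cause was not tested.

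With 1 library left out, members called between genotypes numbered 1 to 3 (D7) and 0 to 2 (D0), those with a called interaction 1 to 4, and other pathway genes 2 to 6, 2 to 8 and 4 to 9 in the same order. Uncalled log2 differences that crossed 0 ranged, after injury in Trem2-/- mice, from -0.34 to 0.014 for Anxa1. At D7 between genotypes they ranged from -0.099 to 0.002 for Ptgs1, -0.074 to 0.064 for Ptgs2 and -0.24 to 0.13 for Alox15. At D0 they ranged from -0.041 to 0.18 for Ptgs1, -0.12 to 0.32 for Ptgs2, -0.45 to 0.018 for Alox15, -0.14 to 0.38 for Lta4h and -0.26 to 0.098 for Anxa1. For the interaction they ranged from -0.22 to 0.0017 for Ptgs1, -0.32 to 0.13 for Ptgs2, -0.066 to 0.40 for Alox15 and -0.15 to 0.20 for Anxa1.

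Nothing in the labels pairs the libraries by number, and in no comparison did all 4 same-numbered pairs correlate above 0.1. The nearest was WT D7 against D0, where 3 of 4 pairs did and 3 of 4 libraries correlated best with their own number, a hint from the data only. Correlations of deviations were 0.046 to 0.41 between WT D0 and WT D7, -0.2 to 0.11 in Trem2-/- mice, -0.079 to 0.38 at D7 and -0.51 to 0.17 at D0. With the replicate block, 5 members were called in WT mice and 7 in Trem2-/- mice after injury, 4 for the interaction, and 1 (D7) and 0 (D0) between genotypes, and the log2 difference of Ptgs2 in WT mice was 0.53 and not called. The ratio of Fpr2 to Fpr1 was not run. Alox15 and Ptges, with fewest reads per library, had the least counting precision.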

Other observations

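The remaining marker lists give the setting of the member genes. Of 4 erythroid genes named in the list 3 had a row in the table, and all 3 fell after injury in both genotypes, with median log2 fold changes of -1.15 in WT and -1.68 in Trem2-/- mice. Chondrocyte genes (Col2a1, Acan, Comp and Sox9) rose in 4 of 4 cases in both genotypes, with medians of 2.89 and 3.62 in the same order. Of 7 listed monocyte and macrophage genes, 5 rose in WT mice, and 4 rose and 2 fell in Trem2-/- mice, with medians of 1.43 and 0.82, so myeloid lists did not move as one. None of 4 endothelial genes was called (medians of 0.085 and 0.27). Of 5 mast cell genes 1 fell in each genotype, of 5 platelet genes 1 rose and 2 fell in WT and 2 rose and 1 fell in Trem2-/- mice, and of 4 skeletal muscle genes 1 fell in WT and 4 in Trem2-/- mice.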
